A study of Rattus norvegicus with 12 samples.

Results

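Between 2 strains of rat, 8 of 15697 tested uterine genes differed in how they answered progesterone. The strain difference of a gene is its log2 change with progesterone in Brown Norway (BN) minus its log2 change in Holtzman Sprague Dawley (HSD), fitted over all 12 libraries. A positive value means a larger rise, or a smaller fall, in BN. HSD is an outbred stock, and BN is an inbred strain, the one whose genome serves as the rat reference. Rats were ovariectomised, rested for 2 weeks and were 10 weeks old. Rats of each strain received progesterone under the skin, at a dose of 40 µg for each g they weighed, or only its vehicle, sesame oil, and the uterus was collected after 9 h. There were 3 libraries in each of the 4 groups (HSD-Oil, HSD-P4, BN-Oil and BN-P4, where P4 is progesterone), with 11763894 to 19033254 gene reads per library.

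Progesterone acts through a nuclear receptor that binds DNA and changes transcription in the epithelium, stroma and muscle of the uterus. In rodents it restrains estrogen-driven growth of the epithelium and prepares the tissue for an implanting embryo. Ovariectomy removes the main source of both hormones, so an injection is followed against a low background. Markers of uterine tissue were present in all groups: Myh11, the heavy chain of smooth muscle myosin, averaged 5946 to 9009 CPM (reads scaled to library size), and Epcam, an epithelial adhesion molecule, 184 to 297 CPM. The aromatase Cyp19a1, a marker of ovary, averaged 0.392 to 0.695 CPM.

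The strain difference was called for 8 genes, 0.051% of those tested, at an adjusted p below 0.05 in edgeR's quasi-likelihood test with Benjamini-Hochberg adjustment. The count depended on the tool and the libraries: DESeq2 called 119, limma voom 26, and edgeR 2 to 16 with 1 library left out. It was positive in Il17re, Arnt2, Clu and Emid1 (0.0255%) and negative in RT1-A2, Atp7b, Slc25a15 and Csrp2 (0.0255%). In 5 of the 8 the change went the same way in both strains and was larger in HSD. In the other 3, Il17re, RT1-A2 and Csrp2, the fitted changes had opposite signs. None of the 8 had the larger change in BN in the same direction. Over all tested genes 55.2% had the same sign and the larger change in HSD, 17.8% opposite signs and 26.9% the larger change in BN. The 5 of 8 thus lie near the share of all tested genes. By comparison, progesterone changed 6133 genes in HSD (39.1% of those tested) and 4045 in BN (25.8%). Those 2 call counts order the other way when each strain is fitted on its own 6 libraries, with 4181 in HSD and 5608 in BN, so they do not rank the strains. In HSD 3193 genes rose and 2940 fell, and in BN 2196 rose and 1849 fell. The split depended on scaling: by library size alone 2355 rose and 4034 fell in HSD, with the median of all genes shifted to -0.14, and by upper-quartile factors 1759 rose and 2251 fell in BN.

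**Figure D1:**
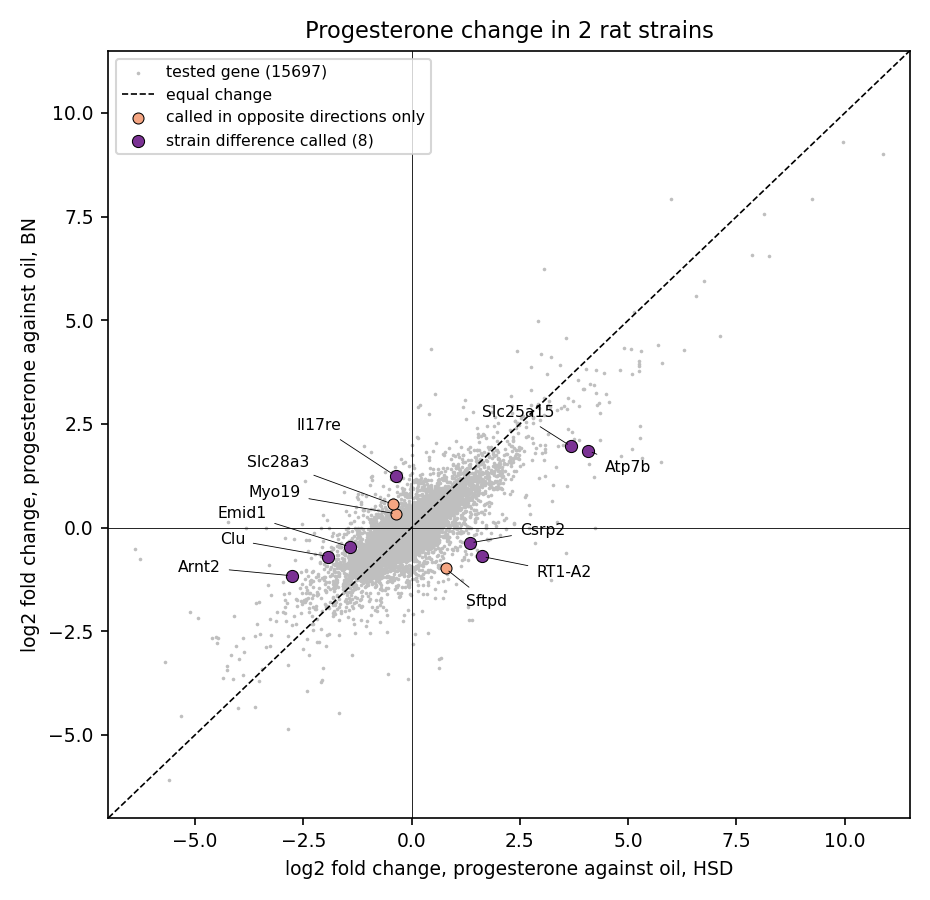
Log2 fold change with progesterone in HSD (x axis) against BN (y axis) for each of 15697 tested genes, with the line of equal change dashed. The 8 genes with a called strain difference lie away from that line, and Il17re, RT1-A2 and Csrp2 lie where the signs differ.

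Arnt2 had the smallest p of all tested genes. It encodes a basic helix-loop-helix PAS protein that pairs with other transcription factors of its family, and it lies on chromosome 1 from 147327952 to 147484879, minus strand, in the Rnor_5.0 build, which gives all gene positions here. Its level was 616, 500.2 and 567 CPM in the HSD-Oil libraries and 77.3, 87.0 and 82.5 in HSD-P4. It was 256, 271 and 292 CPM in BN-Oil and 125, 111 and 129.9 in BN-P4. No group overlapped another: HSD was the higher strain under oil and the lower one under progesterone. Arnt2 fell by 2.77 ± 0.11 on the log2 scale (± SE) in HSD and by 1.16 ± 0.11 in BN, a strain difference of 1.61 ± 0.15 (edgeR adjusted p = 0.00198). Reads in its exons alone gave a strain difference of 1.53 and reads in its introns alone 1.87.

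Il17re encodes a subunit of the interleukin 17C receptor, which acts in epithelia (chromosome 4, 208711257 to 208723904). The HSD-Oil libraries held 38.5, 31.4 and 32.0 CPM and the HSD-P4 libraries 27.0, 26.3 and 25.7. The BN-Oil libraries held 33.9, 27.7 and 33.9 CPM and the BN-P4 libraries 65.6, 82.4 and 78.3. All 3 BN-P4 libraries stood above every other library, and the oil groups overlapped. Il17re fell by 0.37 ± 0.12 in HSD (edgeR adjusted p = 0.0314) and rose by 1.24 ± 0.12 in BN, a strain difference of 1.61 ± 0.17 (edgeR adjusted p = 0.0041). The neighbouring interleukin receptor gene Il17rc had a strain difference of 0.25. On the other side lay Jagn1 (-0.02), the lipid droplet gene Cidec, a marker of adipocytes (3.84, edgeR adjusted p = 0.424, at a mean of 1.99 CPM or less in every group), Rpusd3 (1.08, edgeR adjusted p = 0.37) and Ttll3 (0.53, edgeR adjusted p = 0.323). Arnt2 and Il17re stayed called when any 1 of the 12 libraries was left out, at adjusted p values up to 0.0209 and 0.0282.

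Clu encodes clusterin, a secreted chaperone that also regulates complement (chromosome 15, 48926516 to 48939266). It stood at 1337, 1369 and 1343 CPM in HSD-Oil and 421, 366 and 281 in HSD-P4. In BN-Oil it stood at 621, 574 and 599.5 CPM and in BN-P4 at 379.6, 359.6 and 367. The strains were far apart under oil, and under progesterone all 3 BN libraries fell within the HSD range. Clu fell by 1.92 ± 0.13 in HSD and by 0.70 ± 0.13 in BN, a strain difference of 1.22 ± 0.19 (edgeR adjusted p = 0.0367). The call held only when the left-out library was one of the 3 HSD-P4 libraries; without any of the others the adjusted p lay above 0.05, up to 0.204. It was also lost on intron reads (1.29, edgeR adjusted p = 0.207) and with limma on log2(RPKM + 0.1) (adjusted p = 0.0564). The strain difference stayed between 1.07 and 1.37 over all 12 omissions.

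Emid1 encodes an extracellular matrix protein with an EMI domain (chromosome 14, 86034840 to 86073361). The HSD-Oil libraries held 102, 100.3 and 108 CPM and the HSD-P4 libraries 38.4, 37.5 and 39.5. The BN-Oil libraries held 54.2, 54.7 and 56.3 CPM and the BN-P4 libraries 35.3, 42.0 and 42.3. As with Clu, the strains differed under oil and overlapped under progesterone. Emid1 fell by 1.43 ± 0.09 in HSD and by 0.46 ± 0.09 in BN, a strain difference of 0.96 ± 0.13 (edgeR adjusted p = 0.0231). Of its reads 82.6% lay in introns, and on exon reads alone the same difference of 0.97 was not called (edgeR adjusted p = 0.361), nor was it on intron reads (adjusted p = 0.0556) or with limma on log2(RPKM + 0.1) or log2(RPKM + 1) (0.322 and 0.183). The call was kept without HSD-Oil replicate 1 or 2, HSD-P4 replicate 2 or 3, or BN-P4 replicate 1 and lost without any of the others, at adjusted p values up to 0.126.

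RT1-A2 is a classical class I gene of the rat major histocompatibility complex (MHC), which presents peptides to T cells (chromosome 20, 7433433 to 7436985). Its level was 180 CPM, 121 CPM and 108 CPM in HSD-Oil and 453, 498 and 308 CPM in HSD-P4. It was 137, 199.8 and 138 CPM in BN-Oil and 86.9, 112 and 94.1 CPM in BN-P4. The oil groups overlapped, every HSD-P4 library lay above both, and every BN-P4 library lay below the BN-Oil libraries. RT1-A2 rose by 1.62 ± 0.23 in HSD and fell by 0.70 ± 0.23 in BN (edgeR adjusted p = 0.03775). The strain difference was -2.32 ± 0.32 (edgeR adjusted p = 0.0231). Class I genes are close copies of each other and vary between strains; 95.05% of RT1-A2 reads were placed uniquely, and the effect of reading HSD transcripts against a BN genome was not tested. The call was kept without HSD-Oil replicate 1 or 2, HSD-P4 replicate 2 or 3, or BN-Oil replicate 1 and lost without any of the others, at adjusted p values up to 0.139; with limma on log2(RPKM + 0.1) it was lost too (adjusted p = 0.0564). The next class I gene along, RT1-A1, had a strain difference of -0.88 (edgeR adjusted p = 0.734).

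Atp7b and Slc25a15 lie near each other on chromosome 16, with several other genes between them, and both rose more in HSD. Slc25a15 encodes the mitochondrial ornithine carrier of the urea cycle (74169024 to 74189301, plus strand), and Atp7b the copper-transporting ATPase that is mutated in Wilson disease in humans (74495179 to 74574801, plus strand). The 250 bases upstream of the RefSeq start of each, on the GRCr8 build, are printed because these genes were the only called ones on a shared chromosome, and in lower case because neither holds, on either strand, TGTTCT, the hexamer that the progesterone receptor and its close relatives bind; a match would be in capitals. The windows are chr16:76336620-76336869 and chr16:76654475-76654724, both on the plus strand.
Slc25a15: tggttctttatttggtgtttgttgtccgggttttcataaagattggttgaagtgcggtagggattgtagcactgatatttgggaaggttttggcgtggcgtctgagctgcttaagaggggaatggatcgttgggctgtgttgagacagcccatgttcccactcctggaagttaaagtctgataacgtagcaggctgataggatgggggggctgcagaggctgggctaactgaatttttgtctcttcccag
Atp7b: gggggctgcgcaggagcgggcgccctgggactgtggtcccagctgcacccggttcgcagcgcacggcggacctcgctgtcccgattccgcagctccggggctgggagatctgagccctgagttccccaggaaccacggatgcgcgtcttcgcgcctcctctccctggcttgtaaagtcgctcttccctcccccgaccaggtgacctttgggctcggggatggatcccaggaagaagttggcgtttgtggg
G and C made up 48.8% of the Slc25a15 window and 67.6% of the Atp7b window, against a median of 51.2% over 33469 RefSeq promoters. The hexamer was in 0 of the 6 called genes with a RefSeq promoter and in 17.5% of all promoters, which says only that these letters are not in these windows. Whether the RefSeq start is where transcription begins in the uterus was not tested. The printed windows may thus hold transcribed or intronic sequence in place of promoter sequence.

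In the HSD-Oil libraries Atp7b stood at 1.60, 1.45 and 1.56 CPM and in HSD-P4 at 24.7, 29.5 and 23.98. In BN-Oil it stood at 2.43, 1.76 and 1.72 CPM and in BN-P4 at 5.39, 8.79 and 7.43. Every BN-Oil library was slightly above every HSD-Oil library, at the bottom of the range, and each HSD-P4 library was above every BN-P4 library. Atp7b rose by 4.08 ± 0.21 in HSD, a ratio of fitted levels of 16.9, and by 1.85 ± 0.21 in BN, a ratio of 3.62. The strain difference was -2.22 ± 0.30 (edgeR adjusted p = 0.0231), and the oil libraries rest on 21 to 38 reads each. The call was lost on exon reads alone (-2.32, edgeR adjusted p = 0.0851), on intron reads alone (-2.03, adjusted p = 0.135) and with limma on log2(RPKM + 0.1) (-1.97, adjusted p = 0.166). It was kept without HSD-Oil replicate 1 or 2, HSD-P4 replicate 2 or 3, or BN-P4 replicate 1 or 2 and lost without any of the others, at adjusted p values up to 0.125.

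Slc25a15 stood at 17.7, 19.3 and 22.7 CPM in HSD-Oil and 256, 221 and 290.2 in HSD-P4. It stood at 45.9, 39.6 and 45.1 CPM in BN-Oil and 135, 225 and 147 in BN-P4. Under oil every BN library was above every HSD library, and under progesterone the ranges overlapped. Slc25a15 rose by 3.68 ± 0.20 in HSD, a ratio of 12.9, and by 1.96 ± 0.18 in BN, a ratio of 3.88. The strain difference was -1.73 ± 0.26 (edgeR adjusted p = 0.0367), with -1.88 on exon reads and -1.51 on intron reads. It stayed called without HSD-P4 replicate 2 or 3 or BN-P4 replicate 2 and was lost without any of the other libraries, at adjusted p values up to 0.144. Next to it on chromosome 16, Tpte2 rose by 3.49 ± 0.35 in HSD and by 1.99 ± 0.35 in BN, and at -1.51 its own strain difference missed the threshold (edgeR adjusted p = 0.502). The tested genes from there to Atp7b had mixed values: in HSD and BN they were -0.35 and -0.16 for Thsd1, 0.28 and 0.02 for Vps36, 1.34 and 0.37 for Ckap2, -0.86 and -0.35 for Nek3, -1.45 and -1.43 for Nek5 and 0.78 and 0.43 for Alg11. None of their strain differences passed, the smallest adjusted p being 0.602 in Ckap2 (edgeR).

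Csrp2 encodes a LIM-domain protein of smooth muscle and activated stromal cells (chromosome 7, 53641861 to 53660495). The HSD-Oil libraries held 17.2, 29.0 and 20.2 CPM and the HSD-P4 libraries 53.9, 45.2 and 69.1. The BN-Oil libraries held 42.2, 39.7 and 43.7 CPM and the BN-P4 libraries 30.4, 33.4 and 33.3. The HSD groups were the lowest and the highest of the 4, with both BN groups between them. Csrp2 rose by 1.34 ± 0.18 in HSD, and in BN its change of -0.37 ± 0.18 did not pass (edgeR adjusted p = 0.156). The strain difference was -1.71 ± 0.26 (edgeR adjusted p = 0.0367). It stayed called without HSD-Oil replicate 2 or HSD-P4 replicate 2 or 3 and was lost without any of the other libraries, at adjusted p values up to 0.197. It was also lost on exon reads (edgeR adjusted p = 0.133), with upper-quartile factors (0.0514) and with limma on log2(RPKM + 0.1) and log2(RPKM + 1) (0.0884 and 0.0702). The level of the smooth muscle markers, as the median log2 deviation from the mean of all libraries, was -0.53 to -0.06 in HSD-Oil, -0.71 to 0.25 in HSD-P4, 0.12 to 0.31 in BN-Oil and -0.17 to 0.38 in BN-P4. Its part in the Csrp2 values was not tested. In tissue RNA, fewer cells of a type and less RNA per cell cannot be told apart.

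**Figure D2:**
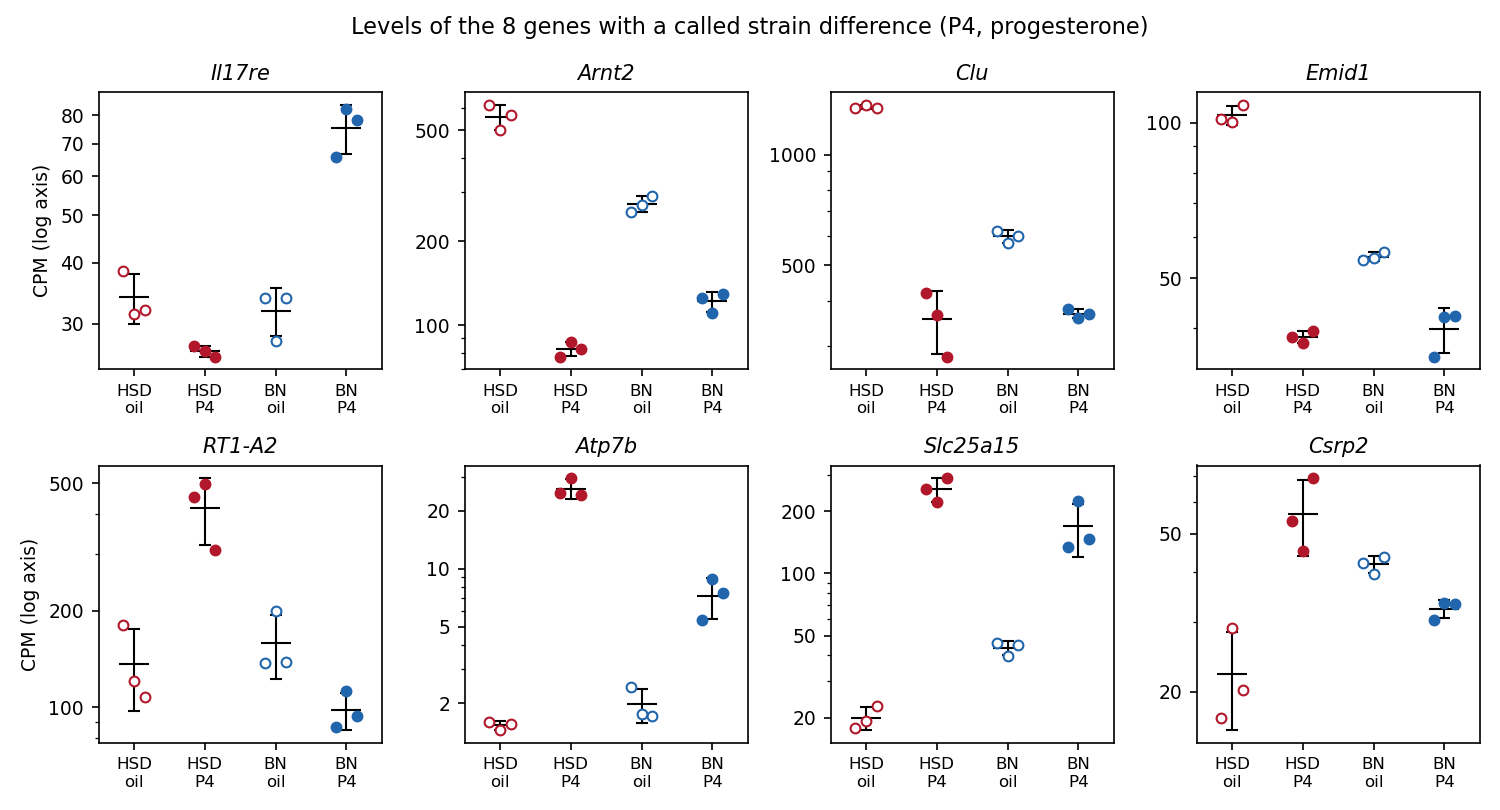
CPM on a log axis in each of the 12 libraries for the 8 genes with a called strain difference. Points are libraries (open for oil, filled for progesterone), and the bars give the mean ± SD of 3. In Clu and Emid1 the strains meet under progesterone, and in Il17re and RT1-A2 they meet under oil.

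The 8 genes thus differed in where the strains stood apart. A direct comparison of BN with HSD called 3 of them under oil only (Clu, Emid1 and Slc25a15), beside 3.18% of all tested genes. It called 3 under progesterone only (Il17re, RT1-A2 and Atp7b), beside 3.22%, and 2 under both (Arnt2 and Csrp2), beside 2.51%. In all, 5.69% of tested genes were called under oil, 2.34% higher and 3.34% lower in BN. Under progesterone 5.73% were called, 2.43% higher and 3.31% lower. Arnt2 was lower in BN under oil by 1.04 on the log2 scale and higher under progesterone by 0.57. Csrp2 was the reverse, at 0.92 under oil and -0.79 under progesterone.

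Progesterone changed 5 genes in opposite directions in the strains, 0.0319% of those tested. Besides Il17re and RT1-A2 these were Myo19, Sftpd and Slc28a3, whose strain differences did not pass. Myo19, a mitochondrial myosin, held 85.0, 82.9 and 86.6 CPM in HSD-Oil, 73.5, 64.6 and 61.9 in HSD-P4, 29.5, 26.9 and 24.7 in BN-Oil and 37.4, 30.2 and 34.5 in BN-P4. HSD stood above BN in every library, and the gap narrowed with progesterone (-0.35 in HSD, 0.33 in BN, strain difference 0.68 ± 0.15, edgeR adjusted p = 0.193). Sftpd, surfactant protein D of innate defence, held 5.78, 10.3 and 5.14 CPM in HSD-Oil, 13.5, 9.89 and 13.3 in HSD-P4, 4.67, 4.99 and 4.83 in BN-Oil and 1.62, 3.41 and 2.32 in BN-P4. BN-P4 was the lowest group, and the HSD groups overlapped (0.78 in HSD, -0.99 in BN, strain difference -1.77 ± 0.41, edgeR adjusted p = 0.204). Slc28a3, a nucleoside transporter, held 15.1, 13.4 and 14.5 CPM in HSD-Oil, 9.57, 11.8 and 10.3 in HSD-P4, 6.52, 6.96 and 8.36 in BN-Oil and 9.33, 12.2 and 10.7 in BN-P4. The strains were apart under oil and overlapped under progesterone (-0.44 in HSD, 0.57 in BN, strain difference 1.00 ± 0.21, edgeR adjusted p = 0.152). Of Myo19 reads 71.9% and of Slc28a3 reads 66.5% lay in introns, and on exon reads the values were positive in both strains, 0.38 in HSD and 0.73 in BN for Myo19 and 1.89 and 2.20 for Slc28a3. The count of genes called in opposite directions was 11 without HSD-P4 replicate 3 and 1 without BN-Oil replicate 2, and it ranged between those values for the other libraries.

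Just past the threshold stood genes that did not pass. Cox10, an assembly factor of cytochrome c oxidase, held 64.4, 55.0 and 67.2 CPM in HSD-Oil, 21.0, 21.9 and 19.97 in HSD-P4, 35.5, 31.6 and 35.6 in BN-Oil and 22.4, 22.8 and 20.9 in BN-P4. The strains were apart under oil only, with a strain difference of 0.93 (edgeR adjusted p = 0.0527), but 79.1% of its reads lay in introns and exon reads gave 0.21. Obp2b, an odorant-binding lipocalin, held 38.2, 54.4 and 61.1 CPM in HSD-Oil, 16.1, 13.6 and 17.9 in HSD-P4, 20.3, 23.8 and 25.8 in BN-Oil and 20.9, 19.0 and 18.02 in BN-P4. HSD-Oil was above the other groups (1.42, edgeR adjusted p = 0.0794), with 99.8% of reads in introns. On the negative side, Igsf11, an adhesion molecule of the immunoglobulin family, held 117, 97.3 and 94.7 CPM in HSD-Oil, 180.3, 216 and 341 in HSD-P4, 33.6, 32.9 and 34.8 in BN-Oil and 22.6, 27.4 and 26.2 in BN-P4. The groups were all apart (-1.66, edgeR adjusted p = 0.0621), yet 88.9% of its reads were intronic and exon reads gave 0.45. Rnf185, a ubiquitin ligase of the endoplasmic reticulum, held 40.9, 39.6 and 43.9 CPM in HSD-Oil, 147, 172 and 172 in HSD-P4, 45.3, 43.5 and 38.3 in BN-Oil and 78.6, 97.9 and 75.0 in BN-P4. The oil groups overlapped, and each HSD-P4 library was above every BN-P4 library (log2 change 1.98 in HSD and 0.98 in BN, edgeR adjusted p = 0.0715 for the difference). Beyond these, 1133 genes, 7.22% of those tested, had an unadjusted p below 0.05, with 564 positive (3.59%) and 569 negative (3.62%) strain differences. The other genes named by the smallest p on the positive side were Sphkap (4.36), Igsf23 (1.05), St6galnac2 (0.71) and Cdkl1 (0.91), at adjusted p from 0.113 to 0.137. Sphkap held only 7, 5 and 6 reads in HSD-P4, 4, 2 and 6 in BN-Oil and 6, 7 and 3 in BN-P4, so its estimate is uncertain. Of Igsf23 reads 89.9% lay in introns, and exon reads gave 1.16 (edgeR adjusted p = 0.864). On the negative side they were Nrip3 (-2.28), Armcx4 (-0.74), Fkbp5 (-0.95) and Ptprz1 (-1.91), at adjusted p from 0.0853 to 0.135. By the sign of the fitted values, whether or not they passed in either strain, 728 of the 1133 had the same sign and the larger size in HSD, 93 the same sign and the larger size in BN, and 312 opposite signs. Over all tested genes these were 8671, 4226 and 2800.

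The fitted size of the response differed in a broad way that single-gene calls do not show. To order genes without using the strain difference, the change averaged over the strains was used. With equal groups the 2 estimates are close to independent only where both strains have the same spread. Replicate pairs mostly differed more in HSD, with a chi-square per degree of freedom of 15.8 to 80.4, than in BN, with 4.52 to 18.9. Unequal spread of this kind can by itself move genes toward the smaller change in BN. Its part in the shares below was not tested. The averaged change was called for 48.4% of tested genes. Of 1288 genes called there and changed at least 2-fold, 938 (72.8%) changed less in BN and 350 changed more, against 65.2% with the smaller change in BN over all tested genes. For the 652 that rose the median log2 change was 1.60 in HSD and 1.31 in BN, and 494 were smaller in BN. For the 636 that fell it was -1.46 and -1.21, and 444 were smaller in BN. Among the 67 genes that rose at least 8-fold 54 had the smaller rise in BN, and among the 31 that fell as far 23 had the smaller fall. The share of 72.8% ranged from 69.5 to 78.2% with 1 library left out. Genes are not independent replicates, so these shares are descriptions.

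**Figure D3:**
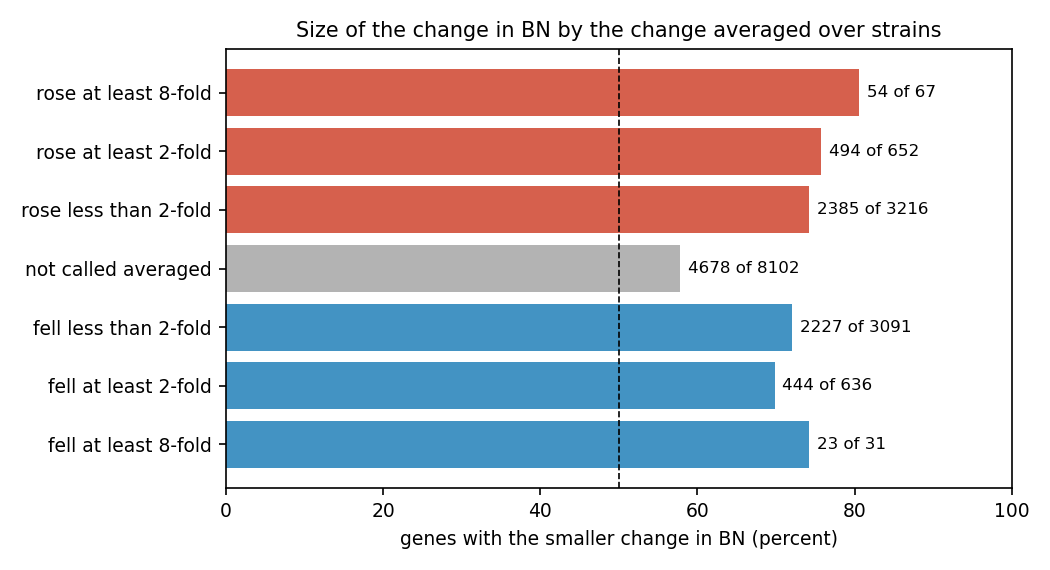
Percent of genes whose change was smaller in BN than in HSD, by the size of the change averaged over the strains, with the number of genes beside each bar. Each class of genes called on the averaged change lies near or above 70%, and genes not called lie at 57.7%.

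For some responders the data also limit how different the strains can have been. Of the 1288 genes, 421 (32.7%) had a 95% interval of the strain difference that stayed within 2-fold in both directions. Over all tested genes this share was larger, at 69.6% (10925 of 15697), so most responders were less tightly bounded. Psat1, an enzyme of serine synthesis, rose by 2.93 in HSD and 2.97 in BN, with an interval from -0.41 to 0.49. Fth1, the ferritin heavy chain, rose by 1.77 and 1.79 (-0.38 to 0.42; 60.5% of its reads were placed uniquely), and the cyclooxygenase Ptgs1 by 1.38 and 1.63 (-0.11 to 0.61). Among falling genes the glycolytic enzyme Aldoc fell by 1.89 and 1.80 (-0.34 to 0.53) and the clock output factor Dbp by 2.38 and 2.04 (-0.25 to 0.93). The largest averaged changes were known less well. Orm1, an acute-phase glycoprotein, had a strain difference of -1.88 with an interval from -2.81 to -0.95, which did not pass over all genes (edgeR adjusted p = 0.196). For the iodide transporter Slc5a5 the interval ran from -2.33 to 0.97, for Calca, the calcitonin gene, from -2.77 to 0.13, for Spns3 from -1.36 to 0.22, for the phospholipase Pla2g3 from -4.28 to 0.89 and for the neuropeptide Gal from -3.62 to 1.08. All 6 point estimates were negative, the one nearest to 0 being -0.57 in Spns3. Some rest on very few oil reads. Slc5a5 had 3, 2 and 1 reads in HSD-Oil and in BN-Oil. Gal had 1, 1 and 3 in HSD-Oil and 3, 2 and 0 in BN-Oil, and Pla2g3 3, 2 and 5 and 5, 6 and 1. The size and sign of the estimates for Slc5a5, Gal and Pla2g3 are thus uncertain. The largest falls were mixed: WIF1 (0.79), Adora1 (2.47) and Tmem72 (0.72) had positive and Tmem213 (-0.49), Cckar (-0.33) and FIBCD1 (-0.71, with 0% of its reads placed uniquely) negative estimates. Tmem213 had 1, 0 and 0 reads in the HSD-P4 libraries and 0 in each BN-P4 library. Adora1 had 0, 1 and 0 reads in HSD-P4, so the size and sign of both estimates are uncertain.

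Of 36 tested progesterone-responsive uterine genes, 14 rose and 5 fell in HSD, and 14 rose and 2 fell in BN. Of all 15697 tested genes 3193 rose and 2940 fell in HSD, and 2196 rose and 1849 fell in BN. In both strains this list thus had the larger share of rises and the smaller share of falls. No strain difference among the 36 genes was called by edgeR, and the median was -0.01, against -0.00 over all tested genes. This list holds both rising and falling genes, so its signed median does not show the size of the change. The change was smaller in BN in 29 of 36 and larger in 7. Over all tested genes 65.2% had the smaller change in BN, and 72.8% of those that changed at least 2-fold. Fkbp5, a co-chaperone of steroid receptors, rose by 2.87 and 1.92, with a strain difference of -0.95 ± 0.18 (edgeR adjusted p = 0.126). Of 13 alternative settings only 2, DESeq2 and limma voom, called it (adjusted p = 0.000772 and 0.0481). With 1 library left out, 1 of 12 edgeR fits did. Its BN-Oil libraries (23.0, 22.3 and 18.7 CPM) stood above HSD-Oil (16.0, 13.5 and 12.7). Its BN-P4 libraries (79.1, 83.1 and 80.5) stood below HSD-P4 (104, 89.5 and 116). The kinase Sgk1 had a strain difference of -0.95 (edgeR adjusted p = 0.15). The surface mucin Muc1, which falls before implantation in rodents, fell by 3.52 in HSD and 1.80 in BN (strain difference 1.72, edgeR adjusted p = 0.313), with 37.2 ± 18.5 and 3.27 ± 0.606 CPM in HSD-Oil and HSD-P4 (mean ± SD, n = 3) and 18.7 ± 2.46 and 5.36 ± 0.674 CPM in BN-Oil and BN-P4. Ihh, the epithelial signal to the stroma, had a strain difference of 0.84 (edgeR adjusted p = 0.471). It rose by 1.33 in BN, and its change of 0.49 in HSD did not pass. Under oil Ihh was lower in BN (-0.81, edgeR adjusted p = 0.0288), and under progesterone the strains were alike in mean level, at 57.9 CPM in HSD-P4 and 58.9 in BN-P4. Hsd11b2, which inactivates glucocorticoids, rose in both strains, with an interval from -0.89 to -0.02.

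Most chaperones of the endoplasmic reticulum and most genes of secretory transport rose in both strains, and most had the smaller change in BN. Among 33 chaperones and stress genes of the endoplasmic reticulum, 25 rose in HSD and 20 in BN, and only Herpud1 fell, in both; of all 15697 tested genes 3193 rose in HSD (20.3%) and 2196 in BN. No strain difference of the list was called, but 31 of 33 were negative, against 7882 of 15697 over all tested genes. The change was smaller in BN in 30 of 33, where 75.8% of all genes that rose at least 2-fold and 74.2% of those that rose less had the smaller rise in BN. The median log2 change was 0.89 in HSD and 0.62 in BN, and the median strain difference -0.36. In HSD the chaperone Hspa5 rose to 1322 ± 174 CPM with progesterone, against 252 ± 18.7 CPM under oil. In BN it rose to 1048 ± 86.1 CPM, against 319 ± 51.7 (strain difference -0.68 ± 0.20, edgeR adjusted p = 0.38). Hsp90b1 stood at -0.76, the cofactor Sdf2l1 at -1.24 and the disulfide isomerase Pdia4 at -0.60, with adjusted p values of 0.259, 0.337 and 0.301. In the secretory transport list 48 of 57 rose in HSD and 39 in BN, none fell, and 52 strain differences were negative (median -0.29). With 52 of 57 smaller in BN, this list too is read against the shares of rising genes given above. The translocon-associated subunits Ssr2 (1.19 and 0.68) and Ssr3 (1.15 and 0.56) are examples.

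Genes of energy supply and protein turnover also had mostly the smaller rise in BN. Of 43 nuclear-encoded subunits of oxidative phosphorylation, 39 rose in HSD and 24 in BN (3193 and 2196 of the 15697 tested genes), none fell, and 42 of the 43 had a negative strain difference and the smaller change in BN, with a median of -0.31. The member with the smallest p was UQCRB, a subunit of complex III, at 1.29 and 0.59 (edgeR adjusted p = 0.35); 62.1% of its reads were placed uniquely, and the separate entry Uqcrb gave 0.88 and 0.47. Cytochrome c, Cycs, rose by 2.65 and 2.55 (interval -0.76 to 0.57). Of 34 proteasome subunits 31 rose in HSD and 26 in BN, and 33 strain differences were negative (median -0.30), with 32 smaller in BN. Psmb2 stood at 0.99 and 0.48. In glycolysis and the citric acid cycle the median was -0.11, and Ldha (-0.67), Mdh1 (-0.63) and Pgk1 (-0.62) had the smallest p values of their list, with adjusted p from 0.161 to 0.193. Of 40 cytosolic ribosomal proteins, of which only 1 rose and 1 fell in HSD and none changed in BN, 38 had a negative strain difference too, with a median of -0.23 that was -0.08 without HSD-P4 replicate 3. The level of the oxidative phosphorylation list was highest in HSD-P4 replicate 3 (0.61, against 0.38 and 0.36 in replicates 1 and 2). Without that library the median strain difference was -0.24, and the median of the endoplasmic reticulum list -0.28. With any 1 library left out these lists kept at least 28 of 33, 50 of 57, 41 of 43 and 29 of 34 negative strain differences, in the order given. Scaled by library size alone they had 27, 49, 41 and 30.

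In sterol synthesis and the clock the median strain difference lay near 0. In the cholesterol and fatty acid synthesis list 25 of 36 rose in HSD and 20 in BN, and the strain differences were split, with 19 negative and 17 positive (median -0.02). With 1 library left out from 15 to 29 of 36 were negative, and the median was -0.17 without HSD-P4 replicate 3 and 0.06 without BN-Oil replicate 2. Fdps, farnesyl diphosphate synthase, rose by 1.51 and 1.23. In the circadian clock list 6 of 19 fell and 4 rose in HSD, and 7 fell and 4 rose in BN. Its median strain difference was -0.01. Over all 15697 tested genes 3193 rose and 2940 fell in HSD, and 2196 rose and 1849 fell in BN. The share of clock genes that rose in HSD thus lies near that of all tested genes. Heat shock chaperones outside the endoplasmic reticulum rose in 14 of 25 cases in HSD and 16 in BN, with a median of -0.08. Median strain differences near 0 do not show that the strains acted alike, since single genes in these lists had wide intervals.

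**Figure D4:**
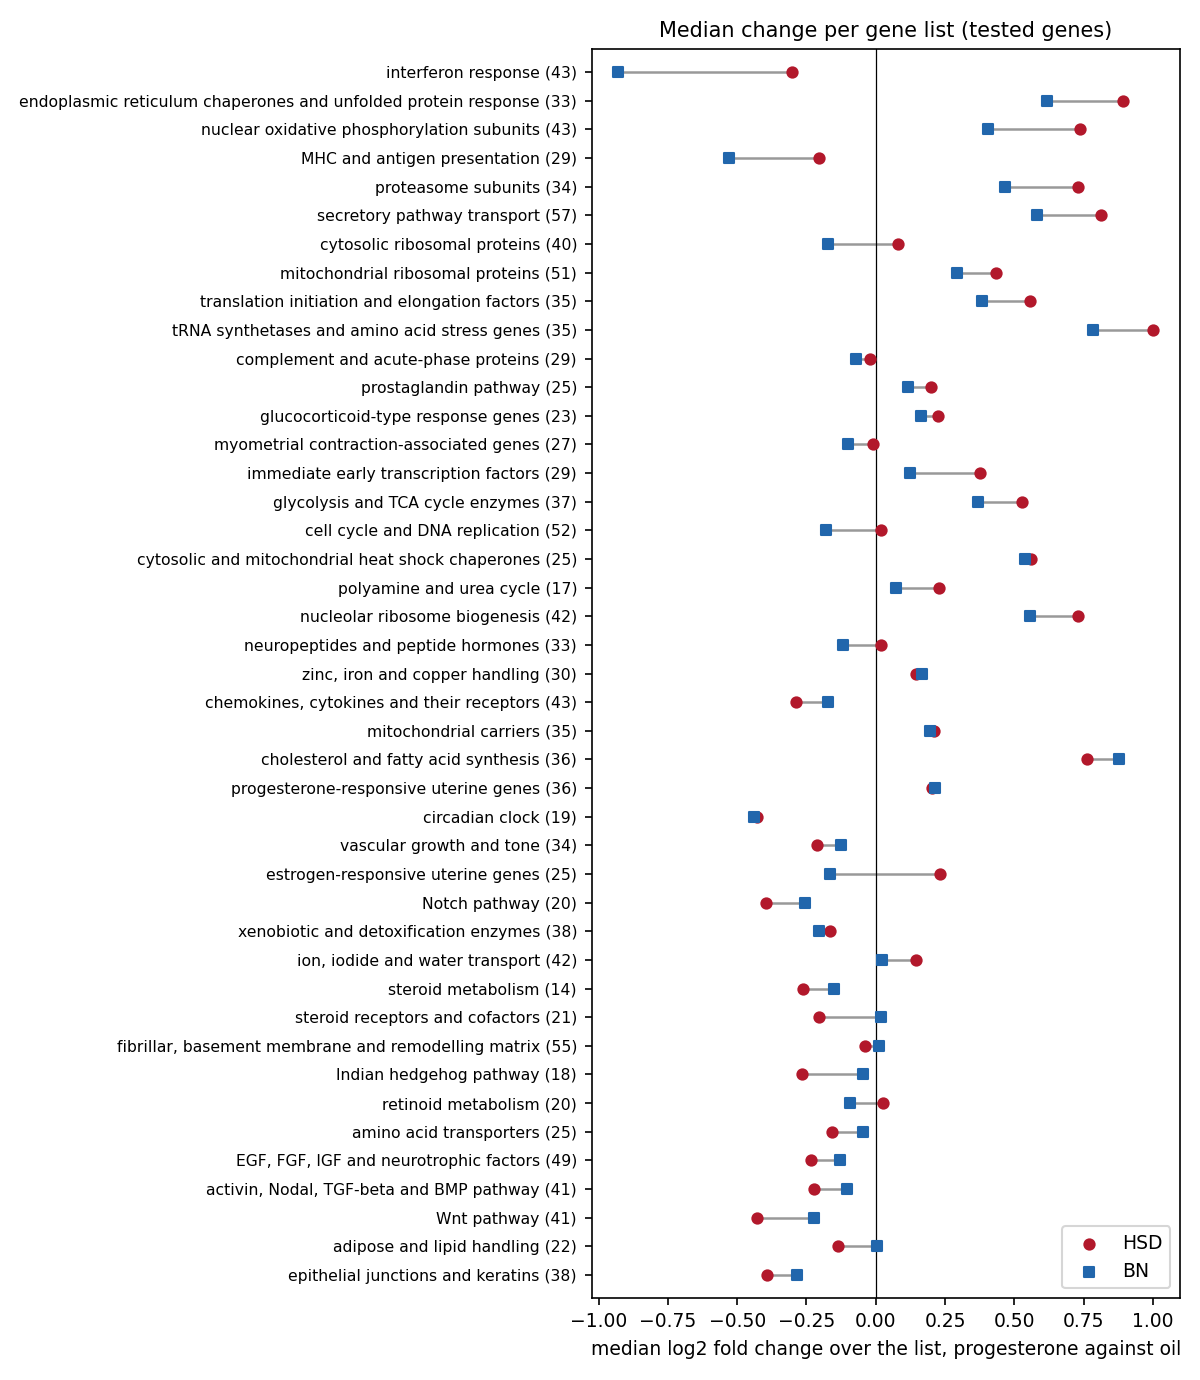
Median log2 fold change with progesterone in HSD (circles) and BN (squares) for each of 43 gene lists, with the number of tested genes in brackets, sorted by the median strain difference. The lists of the endoplasmic reticulum, oxidative phosphorylation, proteasome and secretory transport rise less in BN, and the interferon and MHC lists have lower medians in BN.

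Most interferon response genes fell in BN, and their log2 changes with progesterone were lower there than in HSD. Under oil the list stood higher in BN, with a median of 0.22 for BN against HSD. There 9 genes were called higher and 1 lower in BN, where 2.34% and 3.34% of all tested genes were. Under progesterone the median was -0.25, with 1 gene higher and 5 lower in BN, beside 2.43% and 3.31% of all tested genes. Of 43 interferon response genes, 11 fell and 1 rose in HSD, and 32 fell and 2 rose in BN; of all tested genes 18.7% fell in HSD and 11.8% in BN. None of the strain differences was called, but 41 of 43 were negative (7882 of 15697 over all tested genes), with a median of -0.51. Isg20 rose in both strains and Rsad2 in BN. The RNA-sensing enzyme Oas2 fell by 1.98 in HSD and 2.86 in BN (strain difference -0.88 ± 0.21, edgeR adjusted p = 0.228). Isg15, a ubiquitin-like modifier, stood at -0.16 in HSD, which did not pass, and fell by 1.42 in BN (-1.26, edgeR adjusted p = 0.388). The T cell attractant Cxcl9 stood at 0.04 in HSD, which did not pass, and fell by 2.09 in BN, from 38.1 ± 27.0 to 8.94 ± 0.871 CPM, with HSD-Oil at 2.78 ± 0.889. The level of the interferon list was 0.13, 0.87 and 0.36 in BN-Oil replicates 1, 2 and 3 and -0.34, -0.37 and -0.38 in BN-P4, against 0.21, 0.18 and -0.12 in HSD-Oil and -0.41, -0.11 and -0.14 in HSD-P4. BN-Oil replicate 2 stood highest, and without it the median strain difference was -0.33 and 39 of 43 were negative.

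In the MHC and antigen presentation list, 1 of 29 tested genes rose and 2 fell in HSD, while 12 fell in BN and none rose, where 18.7% of all tested genes fell in HSD and 11.8% in BN. The strain difference of RT1-A2 was the only one called, and 25 of 29 were negative against 7882 of 15697 over all tested genes, with a median of -0.31. The class I genes RT1-CE5 (0.44 and -0.77) and RT1-CE1 (0.00 and -0.53) had strain differences of -1.21 and -0.54 that did not pass (edgeR adjusted p = 0.187 and 0.266); 79.9% of RT1-CE1 reads were placed uniquely. The immunoproteasome subunits Psmb8 (-0.92) and Psmb9 (-1.07) and the class I light chain B2m (-0.64) were on the same side. Without BN-Oil replicate 2 the list's median was -0.15, and 19 of 29 were negative. Markers of T and NK cells, 16 of 19 listed being tested, had a level of -0.51, 0.29 and -0.06 in BN-Oil replicates 1, 2 and 3, -0.49, -0.25 and -0.44 in BN-P4, 0.21 to 0.51 in HSD-Oil and -0.02 to 0.28 in HSD-P4. Their median strain difference was -0.33, and -0.08 without BN-Oil replicate 2. Cd3e, part of the T cell receptor complex, averaged 0.288 to 0.743 CPM. Markers of macrophages and dendritic cells, 13 of 14 listed being tested, had a level of -0.16 to 0.00 in HSD-Oil, 0.08 to 0.24 in HSD-P4, -0.11 to 0.12 in BN-Oil and -0.11 to 0.08 in BN-P4. Their median strain difference was -0.39, and -0.51 to -0.23 with 1 library left out, the latter without BN-Oil replicate 2. The part of both kinds of cell in the interferon and MHC values was not tested.

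**Figure D5:**
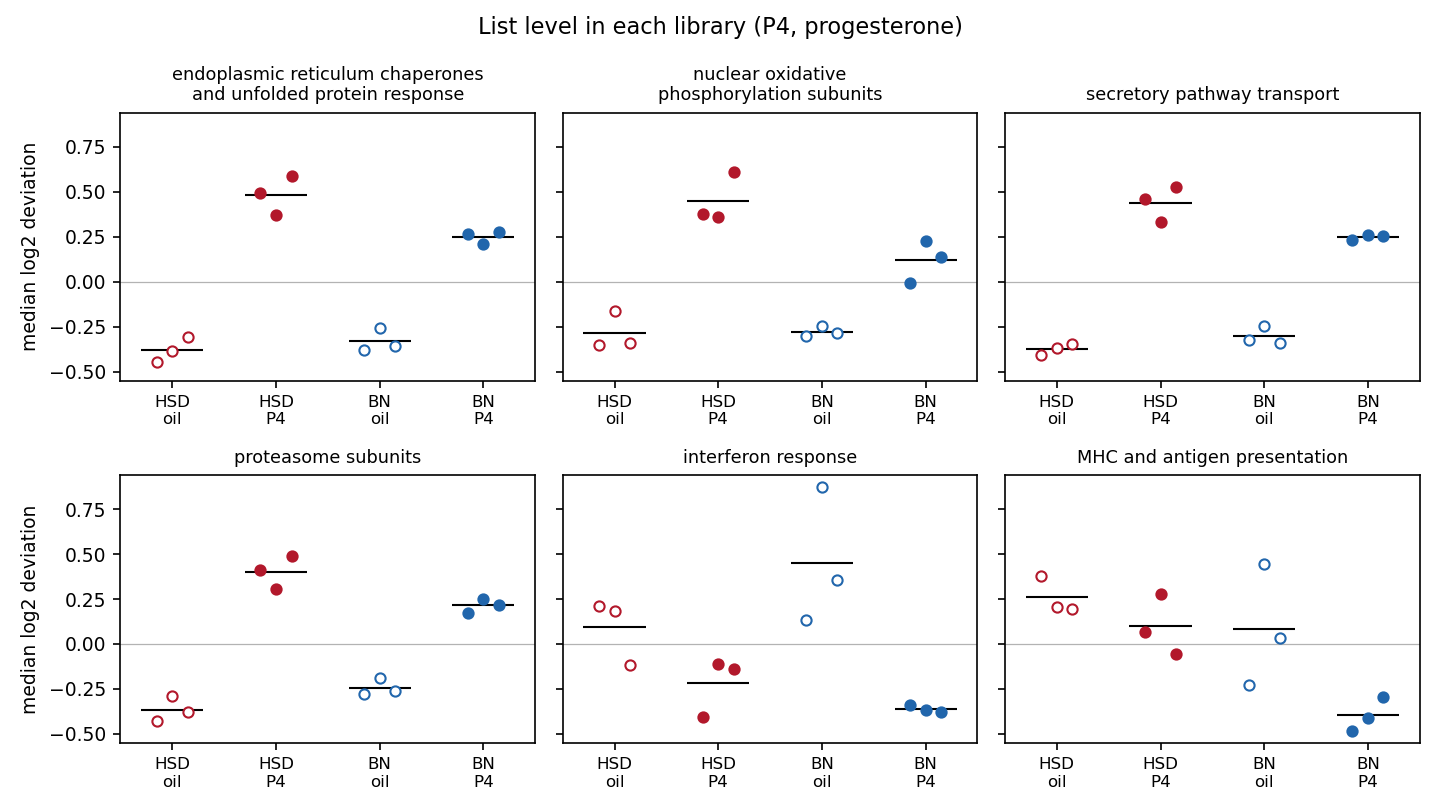
Level of 6 gene lists in each library, as the median log2 deviation of the list's genes from their mean over all 12 libraries (open for oil, filled for progesterone, line for the mean of 3). HSD-P4 lies above BN-P4 in the 4 lists of protein production and energy, and BN-Oil replicate 2 lies highest in the interferon and MHC lists.

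The Wnt list and the list of epithelial junctions and keratins had positive median strain differences, while those of other signalling lists were 0.11 (TGF-beta and BMP; EGF, FGF and IGF), 0.04 (Notch), -0.00 (vascular growth), -0.05 (chemokines and cytokines) and -0.12 (prostaglandins). In the Wnt list 17 of 41 fell and 3 rose in HSD, and 9 fell and 4 rose in BN, with a median strain difference of 0.15 and 27 positive values against 7815 of 15697 over all tested genes. The change was smaller in BN in 29 of 41, near the 69.8% of all genes that fell at least 2-fold. Notum, a secreted Wnt deacylase, fell by 1.16 in HSD and stood at 0.62 in BN, which did not pass (strain difference 1.79, edgeR adjusted p = 0.193). The ligand Wnt7a fell by 2.44 and 1.71, and Znrf3, a ligase that removes Wnt receptors, fell by 0.71 in HSD and stood at 0.13 in BN, which did not pass. In the list of epithelial junctions and keratins 14 of 38 fell and 5 rose in HSD, and 6 fell and 5 rose in BN (median strain difference 0.26, 26 positive). The BN counts of this list lie near the shares of all tested genes given above. The change was smaller in BN in 24 of 38, near the 65.2% over all tested genes. Lama3, a laminin chain of the epithelial basement membrane, fell by 1.33 and 0.54 (0.79, edgeR adjusted p = 0.204). The receptors Egfr (-0.45 and 0.22) and Met (-1.38 and -0.66) had strain differences of 0.67 and 0.71. The epithelial markers themselves, all 15 tested, had levels of -0.14 to 0.53 in HSD-Oil, 0.09 to 0.15 in HSD-P4, -0.26 to -0.12 in BN-Oil and -0.35 to -0.03 in BN-P4, with a median strain difference of 0.20. Their part in these lists was not tested. None of the strain differences named here passed. The Wnt median was 0.07 without HSD-P4 replicate 3 and 0.27 without HSD-P4 replicate 2. The median of the junction and keratin list was 0.13 without HSD-Oil replicate 1, and that of the epithelial markers was 0.00 without HSD-Oil replicate 3.

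Among transporters and secreted peptides single genes stood out by size and not by test. The dicarboxylate transporter Slc13a3 rose by 4.35 in HSD and 2.11 in BN, with HSD-P4 at 9.197 ± 0.742 CPM and BN-P4 at 1.16 ± 0.091 CPM (strain difference -2.23, edgeR adjusted p = 0.37). The sodium channel subunit Scnn1b fell by 1.90 in HSD, and its change of -0.64 in BN did not pass (1.26, edgeR adjusted p = 0.282). The anion exchanger Slc26a4 fell by 4.26 and 3.34 (0.93, edgeR adjusted p = 0.196). Neuropeptide Y, Npy, rose by 7.12 and 4.61 (-2.51, edgeR adjusted p = 0.259), and is uncertain because 23.6% of its reads were placed uniquely. Lefty1, an antagonist of Nodal, was among the few large risers with the larger rise in BN, at 5.998 and 7.92, where its BN-Oil level was 0.280 ± 0.0913 CPM (1.92, edgeR adjusted p = 0.698). The adipocyte hormone Adipoq rose by 2.41 and 1.36 (-1.05, edgeR adjusted p = 0.21); the adipocyte markers ranged from -1.29 to 0.24 in HSD-Oil, -0.68 to 0.83 in HSD-P4, -1.06 to -0.55 in BN-Oil and 0.37 to 0.59 in BN-P4, and their part was not tested.

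With 1 library left out, the count of called strain differences was 2 without HSD-Oil replicate 3, BN-Oil replicate 2, BN-Oil replicate 3 or BN-P4 replicate 3, 4 without HSD-P4 replicate 1 or BN-P4 replicate 1, 5 without BN-Oil replicate 1 or BN-P4 replicate 2, 12 without HSD-P4 replicate 3, 15 without HSD-P4 replicate 2 and 16 without HSD-Oil replicate 2. No sequencing barcode was shared between groups. The barcodes of HSD-Oil replicates 1 and 2, HSD-P4 replicates 2 and 3 and BN-P4 replicates 2 and 3 were each carried by 2 libraries. Every other library had a barcode of its own. Nothing in the labels gives a run or a date, so a batch that follows the groups cannot be told apart from strain or treatment.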

How the data were processed

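PolyA RNA from 12 uterus samples was sequenced, with 3 libraries in each of 4 groups. The authors deposited one table per library with read counts per gene, exon and intron and an RPKM value per gene. The build is Rnor_5.0 per the submitters' processing notes; the aligner, the counting tool and strandedness were not stated. The deposited total gene read counts were used, which include reads placed in more than one place. RPKM, as deposited by the authors, served only in alternative fits on log2(RPKM + 0.1) and log2(RPKM + 1).

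Of 26312 genes, 15697 passed edgeR's filterByExpr with a minimum of 10 reads and held 99.951% of reads. One model with a mean per group was fitted over all 12 libraries (R 4.3.3, edgeR 4.0.16, TMM scaling, robust quasi-likelihood, 8 residual degrees of freedom), and p-values were adjusted over all tested genes. The standard error of a log2 change is its size divided by the square root of the F statistic. The steps were tested on simulated data. The alternatives were other scalings, filters and read columns, DESeq2 1.42.0, limma 3.58.1 and leaving out each library; the intron-read fit and the list medians over settings were chosen after seeing the data. Replicates of a group differed by more than sampling noise, and nothing in the labels says that they are separate animals, so p-values measure the spread between these libraries.

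Members and gene lists were chosen with earlier results of these data known. Genes were named by rule: all called genes, those called in opposite directions, the 6 largest averaged rises and falls, the smallest p values up to 10 in each direction, and up to 4 called genes, or 2 by the averaged change, in each list. Neighbours of called genes, and other list members such as Hspa5, Muc1, Cxcl9, Notum, Slc13a3 and Egfr, were chosen after their values were seen. Promoter sequences are RefSeq's on GRCr8, and 6 of the 8 called genes matched by symbol.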

Additional observations from a re-analysis of the deposited data

Results flagged for a closer look

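For 8 genes the progesterone change differed between the strains by the test of the difference itself (edgeR, adjusted over all tested genes). The strain difference, as BN minus HSD on the log2 scale, was 1.61 in Il17re, 1.61 in Arnt2, 1.22 in Clu and 0.961 in Emid1. It was -2.32 in RT1-A2, -2.22 in Atp7b, -1.73 in Slc25a15 and -1.71 in Csrp2. With 3 libraries in each group, no single library was tested for standing apart from its group.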

How the results depend on the processing

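The number of called strain differences was 13 on intron reads, 119 with DESeq2, 26 with limma voom with quality weights and 14 with limma on log2(RPKM + 1), and it ranged from 2 to 16 with 1 library left out. Intron reads called 3661 genes for progesterone in HSD and 2450 in BN, and voom called 6739 in BN; with 1 library left out the HSD count ranged from 4789 to 6596 and the BN count from 2651 (without BN-Oil replicate 3) to 5024. Between the strains under oil, the count was 538 on exon reads, 1964 with voom, 489 on log2(RPKM + 0.1), 554 on log2(RPKM + 1) and 439 to 1323 with 1 library left out. Under progesterone it was 566 on exon reads, 1519 with DESeq2, 1688 with voom, 515 and 478 on the RPKM scales and 343 to 1454 with 1 library left out. Genes called in opposite directions numbered 3 with library size alone, 3 on exon reads, 2 on intron reads, 14 with voom, 2 and 1 on the RPKM scales and 1 to 11 with 1 library left out. The share of responding genes with the smaller change in BN was 77.0% with a minimum of 30 reads, 69.2% on intron reads, 75.4% with voom, 81.0% on log2(RPKM + 1) and 69.5 to 78.2% with 1 library left out. Scaling by library size alone gave 2355 rises and 4034 falls in HSD.

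The strain difference reversed in Obp2b, at -1.04 on log2(RPKM + 0.1) and -0.16 on log2(RPKM + 1), and in Igsf11, at 0.45 on exon reads and 0.54 and 0.42 on the RPKM scales; the cause was not tested. Settings were counted only for the called genes, those named by the smallest p and those called in opposite directions. Over all other pairs of such a gene and a setting, 466 kept their side of the threshold. Another 41 newly passed it and 61 no longer did, all in the same direction. Genes named by the averaged change or as list members were not counted. No paired analysis was possible because the labels give the groups no shared replicate numbers. Atp7b in the oil groups and other genes at few reads are limited by depth.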
